A study of Mus musculus with 6 samples.

Results

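Chemokine receptors are cell-surface receptors that read gradients of small secreted proteins, the chemokines, and steer the movement of leukocytes. The group described here comprised 8 genes: Cx3cr1, Ccr1, Ccr2, Ccr3, Ccr7, Ccrl2, Cxcr3 and Cxcr5. They were chosen by gene symbol, and all 8 had a row among the 17217 rows of the expression table. Levels in the Cd74 knockout and Control libraries were known when the genes were chosen, so their differences between the groups are given as a description, without p-values.

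The cells were labelled as bone marrow-derived macrophages (BMDMs), from the marrow of 8-week-old mice cultured with 30 ng/mL macrophage colony-stimulating factor (M-CSF), the growth factor that drives macrophage development. Lipopolysaccharide (LPS), a bacterial cell wall component, was given to both groups at 100 ng/mL for 24 h. The Control group held 3 libraries of genotype Con, and the knockout group held 3 libraries of genotype KO, labelled as knockouts of Cd74. Its product, the invariant chain, escorts MHC class II and also binds the cytokine MIF, and it was not measured as protein here. No untreated cells were analysed here, so responses to LPS itself were not measured. The protocol text of every library names WT mice, so the genotype was taken from the titles and genotype labels. The labels place the Control group in batch 1 and the knockout group in batch 2. Genotype and batch cannot be told apart in any value below. The labels do not say whether replicates were separate mice or cultures, so the spread between them may be technical.

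Most chemokine receptors signal through inhibitory G proteins, and several bind more than 1 ligand. CX3CR1 binds fractalkine and marks patrolling monocytes and many resident macrophages, whereas CCR2 brings inflammatory monocytes out of the marrow. CCR1 and CCR3 bind inflammatory CC chemokines, with CCR3 best known on eosinophils. CCR7 and CXCR5 guide cells within lymphoid tissue, and CXCR3 answers the interferon-induced chemokines CXCL9, CXCL10 and CXCL11. CCRL2 is an atypical receptor that binds the chemoattractant chemerin without G protein signalling, and it was cloned as an LPS-inducible gene of macrophages.

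Levels are in TPM, a share of all transcripts scaled by gene length that allows comparison between genes. Depth ran from 36445462 to 59236599 reads recovered from the TPM values, with 12854 to 13102 rows at 1 TPM or more. Cd74, the targeted gene, was at 593 to 632 TPM in the Control libraries (632, 593 and 594) and at 63.1 to 65.3 TPM in the knockout (65.3, 64.6 and 63.1). Its row was among 28 whose values were not all whole reads at a single gene length. In 19 of these rows, Cd74 included, all 3 Control values were whole reads at the annotated length and no knockout value was. How those knockout values were made is not known from the sources used here, so the Cd74 row is a limited check of the genotype labels. All 8 receptor genes were whole reads in every library, at 8 to 5346 reads. Among macrophage markers, Cd68 (1741 to 1927 TPM), Cd14 (2778 to 3094 TPM) and Adgre1, which encodes F4/80 (293 to 494 TPM), were high in every library. Mrc1 stayed at 0.317 to 0.645 TPM, and C1qa, C1qb, C1qc, Mertk and Maf had no row in the table used here. Knockout replicate 3 lay farthest from its group's mean, at a root mean square deviation of 0.193 on the log2(TPM + 1) scale against 0.147 to 0.184 in the other libraries. It was the lowest knockout library for 6 of the 8 receptor genes and the highest for Cx3cr1 and Cxcr3, so results that turn on it are given with and without it.

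The fractalkine receptor gene Cx3cr1 was higher in all 3 knockout libraries than in any Control library. Its Control values were 4.59, 4.73 and 4.91 TPM for replicates 1 to 3, from 234, 342 and 346 reads. In knockout replicates 1 to 3 it stood at 17.0, 18.9 and 19.9 TPM, from 1376, 1334 and 1510 reads. The groups did not overlap, and the gap between them was many times the spread within either. The mean was 3.93-fold higher in the knockout, at 18.6 ± 1.46 against 4.74 ± 0.162 TPM (SD, n = 3 each). On the log2(TPM + 1) scale, which understates changes of low genes, the difference was 1.77 (SE 0.08), rank 8 from the highest among 13034 tested rows. In every knockout library Cx3cr1 ranked just below Ccr1 and Ccrl2 among the 8 genes, whereas in every Control library Cxcr3 also ranked above it.

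Cxcr3, the receptor gene for interferon-induced CXC chemokines, was higher in the knockout as well. Its Control values were 8.52, 7.59 and 5.57 TPM, and its knockout values 15.7, 17.1 and 17.7 TPM. Each knockout library lay above every Control library, and the Control libraries were the more scattered group. The knockout mean of 16.8 ± 1.00 TPM was 2.33-fold the Control mean of 7.23 ± 1.51 TPM (SD, n = 3 each), or 1.13 higher on the log2 scale (SE 0.14).

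Ccr3, the eotaxin receptor gene, was low in both groups but did not overlap between them. Control replicates held 0.971, 1.41 and 0.898 TPM, from 36, 74 and 46 reads. The knockout replicates held 2.80, 2.49 and 2.18 TPM, from 164, 128 and 120 reads. The knockout mean of 2.49 ± 0.308 TPM was 2.28-fold the Control mean of 1.09 ± 0.276 TPM (SD, n = 3 each), a log2 difference of 0.74 (SE 0.16) at a pseudocount of 1. At levels this near the pseudocount the log2 value understates the ratio, and limma-voom on recovered reads gave 1.16. The call on Ccr3 was lost without Control replicate 3, at a log2 difference of 0.68. It also ended when a difference above 0.25 was required.

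Ccr1, a receptor gene for CCL3 and CCL5, was 1 of the 2 most abundant of the 8. Control values were 62.7, 70.0 and 72.5 TPM, and knockout values 105, 107 and 69.4 TPM. Knockout replicates 1 and 2 lay above every Control library, whereas replicate 3 lay within the Control range. The Control mean was 68.4 ± 5.10 TPM and the knockout mean 94.0 ± 21.3 TPM (SD, n = 3 each). The difference of 0.43 on the log2 scale (95% interval 0.05 to 0.81) did not pass the adjusted threshold. Without knockout replicate 3 the knockout mean was 106 TPM and the difference of 0.63 passed it. That was the only 1 of 15 settings in which Ccr1 was called. Leaving out the lowest knockout library widens the difference by construction, so this call lends the difference no support.

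Cxcr5, the CXCL13 receptor gene of follicular homing, showed the same arrangement at a lower level. Control replicates stood at 4.50, 6.23 and 5.64 TPM and knockout replicates at 8.91, 7.71 and 5.21 TPM. Replicate 3 of the knockout again fell inside the Control range. The log2 difference was 0.34 (95% interval -0.10 to 0.79) with all libraries, which was not called, and 0.53 without knockout replicate 3, which was called. That was the only 1 of 15 settings in which Cxcr5 was called, and it leaves out the lowest knockout library.

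For Ccr2, the receptor gene of inflammatory monocytes, no difference could be seen at this number of libraries. It stood at 2.64, 3.59 and 2.92 TPM in the Control replicates and at 3.15, 3.66 and 2.45 TPM in the knockout replicates. The groups overlapped fully, with means of 3.05 ± 0.491 and 3.09 ± 0.604 TPM (SD, n = 3 each). The difference was 0.01 on the log2 scale, with a 95% interval of -0.36 to 0.38, and its sign turned under both scalings, at -0.02 and -0.03. The ratio of Cx3cr1 to Ccr2 was 1.74, 1.32 and 1.68 in the Control libraries and 5.41, 5.16 and 8.12 in the knockout replicates.

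Ccrl2, the chemerin-binding receptor gene, was the 1 gene of the group that was lower in every knockout library. Control replicates stood at 134, 103 and 103 TPM, from 3952, 4284 and 4193 reads. The knockout replicates stood at 56.6, 50.9 and 25.6 TPM, from 2636, 2077 and 1117 reads. Every knockout library lay below every Control library, and replicate 3 was far below the other knockout libraries. The knockout mean of 44.4 ± 16.5 TPM was 2.55-fold lower than the Control mean of 113 ± 18.1 TPM (SD, n = 3 each), with a log2 difference of -1.40 (SE 0.28). Without knockout replicate 3 the knockout mean was 53.8 TPM and the log2 difference -1.05, also called. The Ccrl2 call ended when a difference above 0.25 was required.

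Ccr7, the lymph node homing receptor gene, was close to the limit of measurement. It stood at 1.16, 0.252 and 0.905 TPM in the Control replicates, from 26, 8 and 28 reads. The knockout replicates held 0.339, 0.258 and 0.241 TPM, from 12, 8 and 8 reads. Control replicate 2 lay within the knockout range, so the groups overlapped. Its mean was under the filter of 1 TPM, and with no filter its log2 difference of -0.43 was not called.

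**Figure D1:**
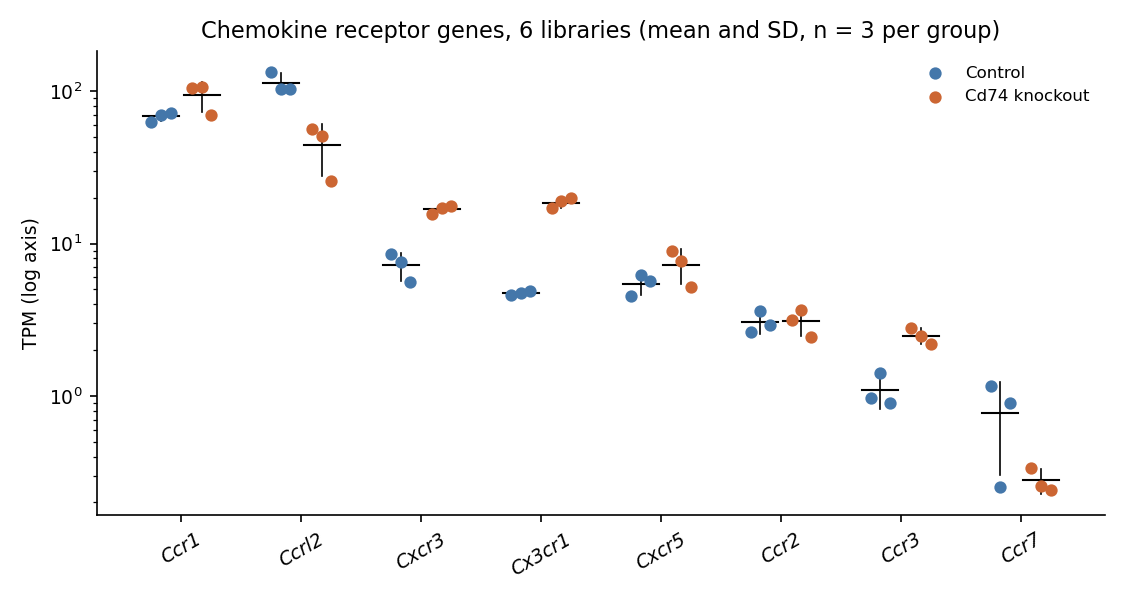
TPM (log axis) of the 8 chemokine receptor genes in each library, Control in blue and Cd74 knockout in orange, with the mean and SD of each group (n = 3). Cx3cr1 and Cxcr3 sit higher in all 3 knockout libraries, Ccrl2 sits lower, and knockout replicate 3, the rightmost orange point, falls back to the Control range in Ccr1 (69.4 TPM) and Cxcr5 (5.21 TPM).

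A mean of 1 TPM over all libraries was reached by 7 of the 8 genes, and each of the 7 also had a mean above 1 TPM within the Control group. Limma called 3 of the 7 higher in the knockout (Cx3cr1, Cxcr3 and Ccr3), where 18.5% of all 13034 tested rows were called higher. It called 1 lower (Ccrl2), where 10.1% of all tested rows were. The groups did not overlap for 4 of the 7, against 50.0% of all tested rows. These shares are printed for reference, since the same contrast was known when the genes were chosen. The median log2 difference of the 7 was 0.43, and that of all tested rows 0.04. Over the whole table, 2406 rows were called higher and 1313 lower, a 64.7% share of higher calls that became 50.8% after median-of-ratios scaling and 52.3% after upper-quartile scaling. The calls and directions of Cx3cr1, Cxcr3, Ccr3 and Ccrl2 were the same under both scalings.

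**Figure D2:**
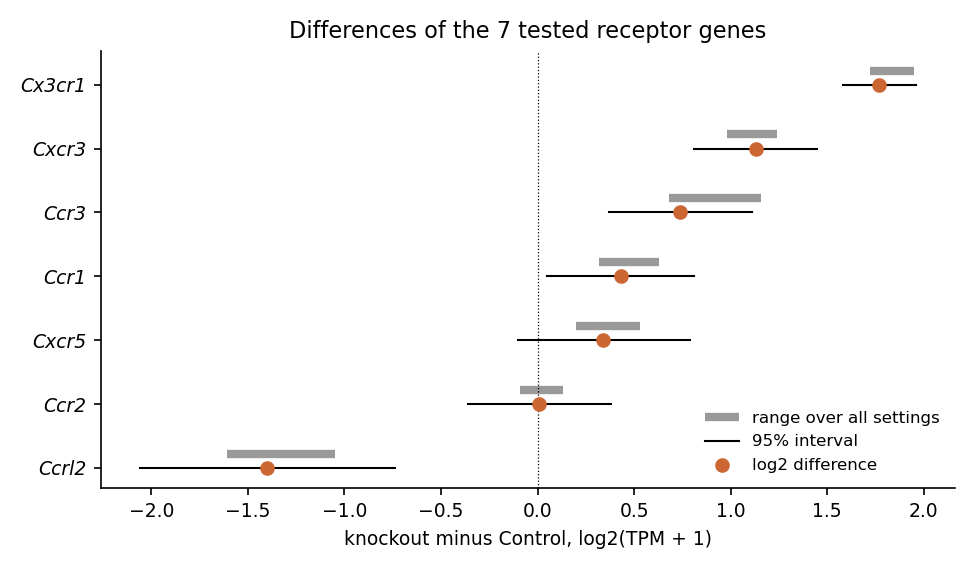
Difference between knockout and Control on the log2(TPM + 1) scale for the 7 tested receptor genes (orange points) with the 95% interval from limma (black lines). Grey bars span the values over all settings, including limma-voom, whose log2 scale has a different offset, and run from 1.72 to 1.95 for Cx3cr1 and from -1.61 to -1.05 for Ccrl2.

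Summed over the 8 genes, receptor transcripts amounted to 219, 197 and 197 TPM in the Control libraries and to 210, 208 and 143 TPM in the knockout. Knockout replicate 3 held the lowest sum, and the other knockout libraries lay within the Control range. The make-up of that sum differed more than its size. Ccrl2 was the most abundant of the 8 in every Control library, at 61.2%, 52.3% and 52.5% of the sum, and Ccr1 the most abundant in every knockout library, at 50.2%, 51.5% and 48.7%. The ratio of Ccr1 to Ccrl2 was 0.467, 0.681 and 0.703 in the Control replicates and 1.86, 2.10 and 2.72 in the knockout replicates, with no overlap. Ccr1 and Ccrl2 together took 87.9% to 89.8% of the sum in the Control libraries and 66.6% to 77.2% in the knockout. The 6 other genes together held 20.8 to 23.8 TPM in the Control libraries and 47.7 to 50.1 TPM in the knockout. Knockout replicate 3 did not stand apart in this last sum. Cx3cr1 alone went from 2.09% to 2.50% of the transcripts of the 8 genes to 8.12% to 14.0%, and Cxcr3 from 2.84% to 3.88% to 7.48% to 12.4%. Both upper ends belonged to knockout replicate 3 and reflect mostly its smaller sum. Cx3cr1 was at 19.9 TPM there against 18.9 TPM in knockout replicate 2, and Cxcr3 at 17.7 against 17.1 TPM. In the Control libraries Cx3cr1 and Cxcr5 overlapped in level (4.59 to 4.91 and 4.50 to 6.23 TPM), as did Cxcr5 and Cxcr3. In the knockout libraries Cx3cr1 and Cxcr3 overlapped (17.0 to 19.9 and 15.7 to 17.7 TPM), and both lay above Cxcr5.

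**Figure D3:**
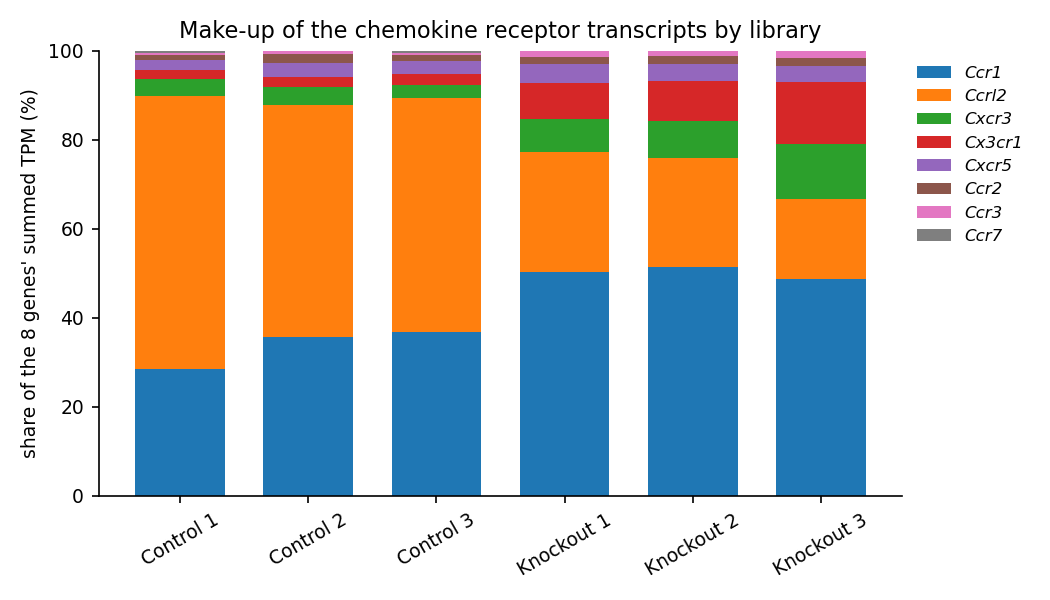
Share of the 8 genes' summed TPM taken by each gene, 1 stacked bar per library (vertical axis in percent). Ccrl2 (orange) takes 52.3% to 61.2% in the Control libraries and 17.9% to 27.0% in the knockout, while the shares of Cx3cr1 (red) and Cxcr3 (green) are larger in every knockout library.

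By a rule of smallest root mean square difference in centred log2(TPM + 1) over the 6 libraries, the rows most like Cx3cr1 were Mmp12 (0.0791), Kbtbd11 (0.116), Angptl2 (0.117), Dmpk (0.140) and H4c9 (0.143). Mmp12, the macrophage elastase gene, stood at 3.86, 4.06 and 3.92 TPM in the Control replicates and at 16.6, 17.5 and 16.6 TPM in the knockout replicates. With 3 libraries a group, this likeness reflects mostly the step between the groups. H4c9 has near-identical histone copies that can share its reads, so its level is uncertain. The rows most like Ccrl2 were Rsad2 (0.0193), Lif (0.0747) and A530040E14Rik (0.0873). Rsad2, an interferon-induced antiviral gene, stood at 730, 563 and 552 TPM in the Control replicates and at 316, 277 and 145 TPM in the knockout replicates. Its order within the groups, with Control replicate 1 the highest and knockout replicate 3 the lowest, was part of the rule that picked it. Ccr1 was among the 3 rows most like Cxcr5 (0.104), and Cxcr5 among the 3 most like Ccr1, beside the interferon-induced GTPase gene Gbp9 (0.0891). The rows nearest to Ccr3 were Gm9027, Ccdc85c and Spef1l, at differences of 0.0544 to 0.0867. Gm25776 (0.109) and Gm22516 (0.117) were among the rows nearest to Cxcr3. Those nearest to Ccr2 were Ptprv, Etfbkmt and Zkscan7, at 0.0462 to 0.0541.

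Promoter sequences are shown for the 4 genes whose groups did not overlap, since members that differ in the same contrast can be compared there. They come from RefSeq (build GRCm38.p6) and run from 250 bases before to 50 bases after the start site, the most upstream of 3 listed for Ccrl2. Of the 8 genes 6 had an entry. Both strands were searched for 7 motifs, and capitals mark every match. The motifs were NF-kB (GGG, any 5 bases, CC), AP-1 (TGANTCA), ETS/PU.1 (GAGGAA), C/EBP (TTGCNNAA), IRF (GAAA, any 2 bases, GAAA), RUNX (TGTGGT) and the TATA box (TATAAA).
Cx3cr1, chr9:120068247-120068546, minus strand: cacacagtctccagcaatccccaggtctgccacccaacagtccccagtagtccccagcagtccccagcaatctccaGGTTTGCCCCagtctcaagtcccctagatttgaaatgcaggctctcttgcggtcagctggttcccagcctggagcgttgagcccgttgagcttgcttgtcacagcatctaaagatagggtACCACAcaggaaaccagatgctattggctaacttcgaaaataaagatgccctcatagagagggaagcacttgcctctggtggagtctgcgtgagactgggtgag
Cxcr3, chrX:101734098-101734397, minus strand: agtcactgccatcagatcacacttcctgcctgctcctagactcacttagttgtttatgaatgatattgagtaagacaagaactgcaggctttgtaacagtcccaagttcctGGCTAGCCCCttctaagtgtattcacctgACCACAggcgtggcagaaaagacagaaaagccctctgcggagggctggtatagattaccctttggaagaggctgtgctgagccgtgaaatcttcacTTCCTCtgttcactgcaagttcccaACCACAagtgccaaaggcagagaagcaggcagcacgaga
Ccr3, chr9:124021721-124022020, plus strand: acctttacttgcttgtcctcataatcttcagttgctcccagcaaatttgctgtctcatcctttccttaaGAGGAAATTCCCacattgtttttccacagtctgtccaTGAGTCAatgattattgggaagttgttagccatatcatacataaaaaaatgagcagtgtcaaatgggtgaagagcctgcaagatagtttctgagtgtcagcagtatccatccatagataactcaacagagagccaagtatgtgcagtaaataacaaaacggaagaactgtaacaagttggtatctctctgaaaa
Ccrl2, chr9:111057469-111057768, minus strand: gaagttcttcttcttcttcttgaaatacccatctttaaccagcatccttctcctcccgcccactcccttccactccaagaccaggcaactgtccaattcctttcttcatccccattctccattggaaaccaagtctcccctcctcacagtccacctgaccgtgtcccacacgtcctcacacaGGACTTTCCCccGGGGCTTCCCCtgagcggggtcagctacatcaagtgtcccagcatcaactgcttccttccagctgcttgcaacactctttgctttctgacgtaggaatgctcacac

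The Cx3cr1 window held 1 NF-kB match and 1 RUNX match, the latter beginning 54 bases before the start site. Cxcr3 held 2 RUNX matches, 1 NF-kB match and 1 ETS/PU.1 match, the latter beginning 14 bases before the start site. In Ccr3 an ETS/PU.1 and an NF-kB match (GGAAATTCCC) overlapped, and an AP-1 match (TGAGTCA) followed. Ccrl2 held 3 NF-kB matches, GGACTTTCCC beginning 68 bases before the start site and 2 overlapping ones beginning 56 and 55 bases before it, and none of the other 6 motifs. Such matches are common. Among 32851 promoter entries of the same length, 50.8% held the NF-kB letters, 28.3% ETS/PU.1, 16.8% RUNX, 10.8% C/EBP, 13.6% TATA, 7.81% AP-1 and 3.44% IRF. The matches are descriptions of letters and not of bound sites. The NF-kB letters were found in both the genes that were higher and the gene that was lower in the knockout.

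By RefSeq's gene order in assembly GRCm38.p6, 6 of the 8 genes lie on chromosome 9 (Ccr1, Ccr2, Ccr3, Ccrl2, Cx3cr1 and Cxcr5), with Ccr7 on chromosome 11 and Cxcr3 on the X chromosome. Ccr1, Ccr3 and Ccr2 follow each other among the genes with a row. Up to 5 genes with a row on each side of each receptor gene were examined, a property that the choice of genes did not use. Of 45 tested neighbours, with the 8 receptor genes left out, 11 were called higher and 3 lower, or 31.1% called against 28.5% of all tested rows. That share was close to the background. Limma called 0 of the 7 tested neighbours of Cx3cr1 higher (1 at an unadjusted p under 0.05, and 0 called by limma-voom) and 1 lower. That gene, Csrnp1, which encodes a nuclear protein, stood at 74.5 TPM in the Control and 40.9 TPM in the knockout on average (log2 difference -0.86, limma adjusted p = 0.0138). Beside Ccrl2, the nearest gene with a row on each side was also lower. Als2cl differed by -0.78 on the log2 scale (limma adjusted p = 0.00434) and Lrrfip2 by -0.49 (limma adjusted p = 0.0144). The latter call was lost without Control replicate 1. Epm2aip1, 3 places away among the genes with a row, was higher (0.20, limma adjusted p = 0.0230), a call lost in 6 other settings. Within the cluster of Ccr1, Ccr2 and Ccr3, the tested neighbours Xcr1, Gm2774 and Fyco1 were not called. Gm39469 was called higher at 0.35 (limma adjusted p = 0.0483), a call that 9 other settings did not give. Near Ccr7, Cdc6 (0.86), Top2a (0.87), Igfbp4 (0.75) and Rara (0.59) were called higher, the first 2 being genes of DNA replication and chromosome segregation. Around Cxcr3, Ercc6l (0.84), Nono (0.28) and Taf1 (0.22) were higher, and around Cxcr5, Bcl9l (0.38) and Ddx6 (0.26). Nono lost its call without Control replicate 1, Ddx6 without Control replicate 1 or 3, Taf1 without either of these or knockout replicate 2, and Bcl9l in 10 settings.

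**Figure D4:**
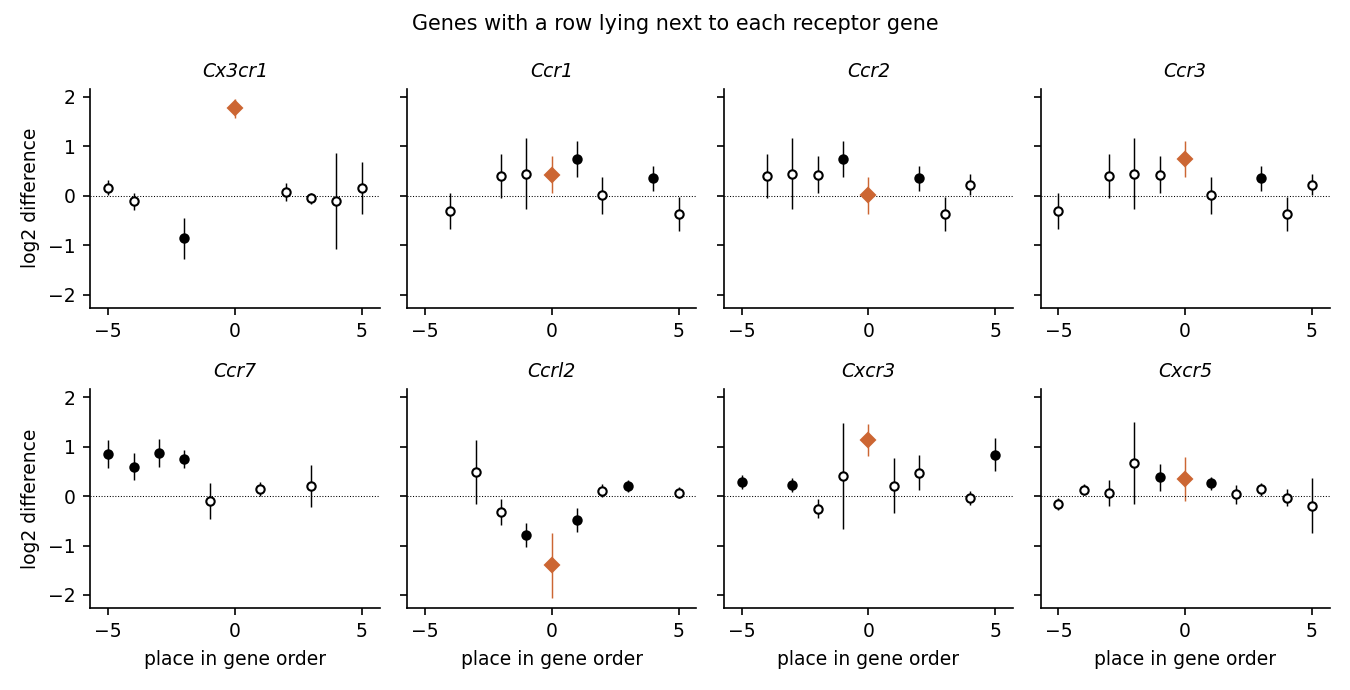
Log2 difference, knockout minus Control on the log2(TPM + 1) scale, of tested genes by their place in the gene order around each receptor gene (orange diamond at place 0, not drawn for Ccr7). Filled circles passed the limma threshold, open circles did not, and lines are 95% intervals; around Cx3cr1 (1.77) no tested neighbour is called higher, and Csrnp1 (-0.86) is called lower.

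Most of the other chemokine receptor genes had no row or a mean under 1 TPM. Of 17 other receptor genes, 9 had no row, among them Ccr6, Ccr8, Cxcr1, Cxcr2 and Ackr3. Another 6 had a mean under 1 TPM, and 2 were tested. Limma called 0 of these, and 0 had an unadjusted p under 0.05 (1 with limma-voom, which also called 0). Ccr10, a skin-homing receptor gene, stood at 6.31 ± 1.05 and 6.26 ± 0.667 TPM and Xcr1, the receptor gene of cross-presenting dendritic cells, at 0.815 ± 0.264 and 1.40 ± 0.360 TPM (SD, n = 3 each). Summed over all the other receptor genes with a row, the level was 8.17 to 9.59 TPM in the Control libraries and 9.43 to 11.1 TPM in the knockout. Cxcr4, the CXCL12 receptor gene, stood at 0.195, 0.276 and 0.212 TPM in the Control replicates and at 0.370, 0.493 and 0.592 TPM in the knockout replicates, and was not tested. The sources used here do not say how reads shared by closely related receptor genes were assigned.

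The ligand genes went down where they differed. Of 19 ligands of the 8 receptors, 10 had a row and were tested, 0 were called higher and 6 lower (60.0% called against 28.5% of all tested rows), with a median log2 difference of -0.33. At an unadjusted p under 0.05, 1 ligand was higher, and limma-voom called 0 higher and 7 lower. Ccl5, a ligand of CCR1 and CCR3, fell by 2.26 on the log2 scale (SE 0.33, limma adjusted p = 0.00539), from 3519, 2130 and 2293 TPM to 762, 641 and 319 TPM. The CXCR3 ligand gene Cxcl10 fell by 1.22 (SE 0.18, limma adjusted p = 0.00570), from 134, 94.3 and 91.7 TPM to 51.9, 48.7 and 35.2 TPM. In both, Control replicate 1 was the highest library and knockout replicate 3 the lowest. The CCR2 ligand gene Ccl7 fell by 0.66 (SE 0.08, limma adjusted p = 0.00307) and the CCR1 ligand gene Ccl3 by 0.38 (SE 0.06, limma adjusted p = 0.00719). Ccl2, the main CCR2 ligand gene, and Ccl4, chosen after their values were seen, fell by 0.27 and 0.25 (limma adjusted p = 0.0152 and 0.0260). Ccl2 lost its call without Control replicate 3, and Ccl4 without Control replicate 1 or 3 or knockout replicate 2. Ccl6, Ccl9, Ccl12 and Cxcl11 were not called, at differences of -0.14, 0.20, 0.08 and -0.57. Ligands with no row included Cx3cl1 (fractalkine), Ccl11 and Ccl24 (eotaxins), Ccl19 and Ccl21a, Cxcl9, Cxcl13 and Rarres2 (chemerin). For CX3CR1, CCR7, CXCR5 and CCRL2, therefore, no listed ligand gene had a row. For CXCR3, the receptor gene was higher while Cxcl10 was lower in the same libraries.

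**Figure D5:**
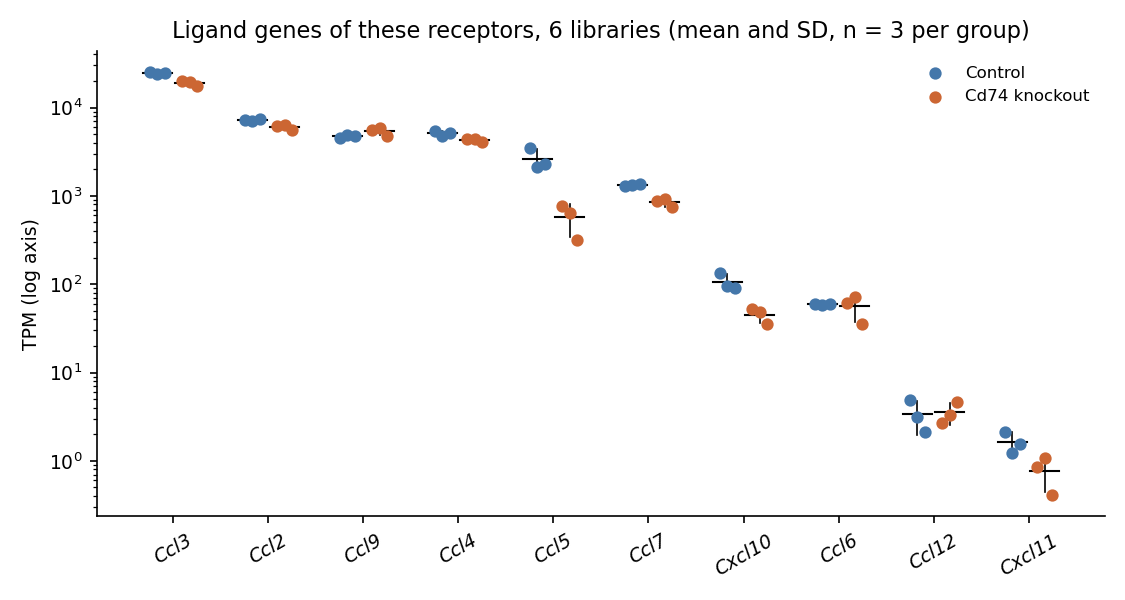
TPM (log axis) of the 10 ligand genes with a row in each library, Control in blue and Cd74 knockout in orange, with the mean and SD of each group (n = 3). Ccl5 and Cxcl10 are separated most clearly, and Ccl6, Ccl9 and Ccl12 overlap between the groups.

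Receptors for other chemoattractants went both ways. Of 12 listed, 10 were tested, with 3 higher, 3 lower and 4 not called (60.0% called against 28.5% of all tested rows), and a median log2 difference of 0.22. Gpr183, a receptor for oxysterols, rose from 17.9 ± 1.67 to 41.3 ± 7.27 TPM (SD, n = 3 each, limma adjusted p = 0.00265), and the leukotriene receptor gene Cysltr1 from 5.65 ± 0.584 to 9.10 ± 0.497 TPM (limma adjusted p = 0.00649). The formyl peptide receptor gene Fpr2 rose by 0.61 (limma adjusted p = 0.0476), a call lost in 11 other settings. Ptafr, the receptor gene for platelet-activating factor, fell from 124 ± 8.69 to 69.3 ± 10.4 TPM (limma adjusted p = 0.00435). The complement receptor gene C5ar1 fell from 71.7 ± 9.34 to 47.3 ± 2.63 TPM (limma adjusted p = 0.00700) and the sphingosine phosphate receptor gene S1pr1 from 9.10 ± 1.02 to 5.25 ± 1.03 TPM (limma adjusted p = 0.0136). S1pr1 lost its call without Control replicate 1.

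Downstream of the receptors, most genes were not called. Of 35 listed names 31 had a row and 30 were tested, with 6 called higher, 3 lower and 21 not called, 30.0% against the 28.5% of all tested rows. Of 6 tested regulators of G protein signalling (Rgs genes), Rgs16 and Rgs19 were called higher, Rgs1 lower and 3 were not called. Rgs16 rose from 38.8 ± 6.41 to 82.2 ± 13.3 TPM (SD, n = 3 each, limma adjusted p = 0.00461), while Rgs1 fell from 353 ± 19.7 to 214 ± 49.9 TPM (limma adjusted p = 0.0160). Rgs1 lost its call without Control replicate 1 or 3. The receptor kinase gene Grk6 rose by 0.48 (limma adjusted p = 0.00289). Nup85, a nuclear pore gene whose product also binds CCR2 and is then called FROUNT, rose by 0.61 (limma adjusted p = 0.00442). Rgs19 (0.21), Elmo1 (-0.21) and Gng5 (-0.17) were also called, each by limma with adjusted p = 0.0393, 0.0246 and 0.0487, and lost the call in 9, 4 and 8 other settings. The arrestin genes Arrb1 and Arrb2, which switch receptors off, were not called, at 0.09 and 0.01.

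In bulk RNA, a change in the number of cells of a type cannot be told apart from a change of transcripts per cell, so markers of other cells are set beside the receptor genes. Limma called 28.5% of all tested rows, 18.5% higher and 10.1% lower. Counts of marker calls here and in the next paragraph are to be read beside these shares. Beside Cx3cr1, Csf1r, Lyz2, Trem2 and Itgam of the macrophage list rose (by 0.76, 0.69, 0.56 and 0.30 on the log2 scale, limma adjusted p = 0.00509, 0.00292, 0.0178 and 0.0256) and Adgre1 fell by 0.56 (limma adjusted p = 0.00435), among 9 tested. The Trem2 call ended without Control replicate 1 or 3, and that of Itgam without Control replicate 3 or knockout replicate 1 or 2. The summed level of the macrophage markers was 10632 to 11183 TPM in the Control libraries and 13987 to 15256 TPM in the knockout. Lyz2 made up most of that gap, and without it the sums were 5435 to 5666 TPM and 5708 to 5885 TPM. All 5 tested osteoclast markers were called higher, where 18.5% of all tested rows were. Their summed level was 242 to 255 TPM in the Control libraries and 342 to 393 TPM in the knockout. The fusion gene Ocstamp rose by 1.41 (limma adjusted p = 4.41e-04), while the Acp5 call ended without Control replicate 2 or 3 and the Ctsk call in 6 other settings. Calcr had no row and Oscar was at 0 to 0.386 TPM. Of 7 non-classical monocyte markers 5 were tested, of which Eno3 rose by 0.55 and Itgal fell by 0.43 (limma adjusted p = 0.00481 and 0.00657), with summed levels of 75.2 to 77.0 TPM and 67.8 to 81.3 TPM. Ace had no row, and Treml4 was at 0 to 1.13 TPM. The part of these cell states in the Cx3cr1 difference was not tested.

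Beside Ccr2, 5 of 6 classical monocyte markers, Ly6c2 among them, had no row, and Mgst1 was at 0.0633 to 0.351 TPM. All 6 eosinophil markers set beside Ccr3, Siglecf and Epx included, had no row. Of 9 T and NK cell markers set beside Cxcr3, 8 had no row, including Cd3d, Cd3e and Cd3g. The remaining one, Lck, fell by 0.25 (limma adjusted p = 0.0307) from 12.6 to 13.9 TPM in the Control libraries to 10.8 to 11.3 TPM, the direction opposite to Cxcr3, a call lost in 6 other settings. Of 6 B cell markers set beside Cxcr5, 3 had no row, Cd79b and Ms4a1 among them, Cd79a and Pax5 were under 1 TPM, and Ighm rose by 0.41 (limma adjusted p = 0.0191), a call lost without Control replicate 3. Their summed level was 8.14 to 10.3 TPM in the Control libraries and reached 12.7 TPM in the knockout, without overlap. Ighm made up most of that sum, at 7.68 to 9.81 TPM and 11.7 to 12.5 TPM, so the sum mainly repeats the Ighm result. Beside Ccr7, 5 of 11 mature dendritic cell markers were tested, and 2 were called (40.0% against 28.5% of all tested rows). Among the 5, 0 were called higher (0 at an unadjusted p under 0.05 and 0 by limma-voom). Ccl22 and Cd83 fell by 0.81 and 0.59 (limma adjusted p = 0.0229 and 0.0217). Both calls were lost without Control replicate 1 or 3, and that of Ccl22 also without knockout replicate 2 or 3. The summed level of that list was 161 to 192 TPM in the Control libraries and 92.7 to 131 TPM in the knockout. Cd83 made up most of it, at 108 to 126 TPM and 60.2 to 87.1 TPM. Flt3 and Batf3 had no row, and Zbtb46 was at 0.190 to 0.341 TPM. S100a8 and Csf3r of the neutrophil list went up by 1.73 and down by 0.62 (limma adjusted p = 0.00142 and 0.00732), with Ly6g, Mpo and Elane without a row. Hdc, the 1 mast cell marker with a row, fell by 1.73 (limma adjusted p = 0.00461), and 0 of 1 tested stromal marker was called by limma or limma-voom, or had an unadjusted p under 0.05. The part of these markers in the receptor differences was not tested.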

How the data were processed

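Bulk RNA sequencing values were used for 6 libraries, 3 Control and 3 knockout, with groups and replicate numbers from the titles. The authors deposited 1 table of 17217 rows in TPM. The unit was read from the values, whose columns sum to 991721 to 998572. Per the submitters' processing notes the build was named as GRCm39 and DESeq2 was listed, with no role. The sources used here give no aligner, counter or annotation. All 6 value columns were mapped to samples.

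The 13034 rows whose mean over all libraries reached 1 TPM were compared on log2(TPM + 1) with limma 3.58.1 in R 4.3.3 (lmFit, eBayes with trend and robust settings), with 2-sided p-values adjusted by Benjamini-Hochberg across the 13034 rows and called under 0.05. The model was also run on simulated reads, with the same small spread for every gene and no batch difference. That spread was smaller than the one of Ccrl2 in the knockout libraries, so the run does not show how reliable the calls here are. Left-out-library fits kept the same rows.

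Reads were recovered as TPM times gene length over a library step, with union exon lengths of GENCODE M21, used for lengths alone. Of the rows, 95.9% were whole in every library within 0.02 read, 681 more at another length within 0.003 read, and 28 at none searched up to 200000 bp. A read was worth 0.0558 to 0.0883 TPM for a gene of 1 kb. Of recovered values of 1 to 12 reads 71% were even, so pairs may have been counted as 2 reads.

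The members and lists were chosen with earlier results of these data known. Besides the members, the genes named from each of 15 lists were the 4 largest rises and 4 largest falls among called genes without overlap, those without a row or below the filter, and called neighbours. The rows most like each member were ranked by root mean square difference, 5 for Cx3cr1 and 3 for the others. A few genes that these rules would name are not reported here. Alternatives were a pseudocount of 0.1, no filter, median-of-ratios and upper-quartile scaling, a replicate block, limma-voom on recovered reads, removal of the 28 rows and of each library in turn.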

Additional observations from a re-analysis of the deposited data

How the results depend on the processing

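The directions of Cx3cr1, Cxcr3, Ccr3, Ccrl2, Ccr1 and Cxcr5 were the same in all 15 settings, and that of Ccr2 was not. Ccr2 gave -0.04 with limma-voom, -0.02 and -0.03 with median-of-ratios and upper-quartile scaling, and -0.09 to 0.13 with 1 library left out in turn, its negative values being -0.06 and -0.01 without Control replicate 1 or 3 and -0.01 and -0.09 without knockout replicate 1 or 2. With 1 library left out, Cx3cr1 ranged from 1.72 to 1.83, Cxcr3 from 0.98 to 1.24 and Ccrl2 from -1.61 to -1.05. The 3719 calls over all rows (2406 higher, 1313 lower) ranged from 1982 to 3252 (1313 to 2096 higher, 669 to 1219 lower) with 1 library left out. The fewest were left without Control replicate 3, then without Control replicate 1 (2129) and knockout replicate 2 (2452). Calls among list genes, 40 in all, ranged from 23 to 37 and those among neighbours, 14 in all, from 8 to 15. Fewer libraries cost power by construction. Limma treat, chosen after the data were seen, requires a difference above 0.25 and left 363 calls (239 higher, 124 lower), 12 among list genes, 4 among neighbours and 2 among the receptor genes (Cx3cr1 and Cxcr3). Counts of settings in which a single gene's call was lost leave treat out.

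Deviations of same-numbered libraries from their group means correlated at 0.134, -0.0766 and 0.0315. With 3 libraries a group, these values cannot decide whether same-numbered libraries were paired, and the labels do not say. With a replicate block 3711 rows were called (2331 higher, 1380 lower), 39 among list genes and 15 among neighbours, and Cx3cr1, Cxcr3, Ccr3 and Ccrl2 were still called. Depth limits Ccr7 (8 to 28 reads) and Ccr3 (36 to 164 reads) most. Receptors without a row could not be compared, and those below the filter were fitted only in the setting with no filter.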
